A study of Zea mays with 48 samples.

Results

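The 4 maize chromatin genes described here are NFD101, NFD104 and NFD106, which code for high mobility group (HMG) proteins, and NFE101. Each is measured by 1 probe (P_NFD101, P_NFD104, P_NFD106 and P_NFE101), and the 4 probes were picked by their names from the 3585 gene probes of the array table. RNA of embryos and of endosperm, the nutritive tissue of the kernel, was isolated 6 days after pollination. It came from 3 inbred lines (UH301, UH005, UH250) and from hybrids of UH301 with each of the others. The groups are inbreds 301, 005 and 250, the reciprocal hybrids 301x005 and 005x301 (cross 301/005), and the reciprocal hybrids 301x250 and 250x301 (cross 301/250). The 2-colour arrays each set 1 hybrid beside 1 inbred, and the 4 arrays that pair both reciprocal hybrids with both inbreds of a cross form a closed loop. The loop is the replicate. Of 12 loops (48 arrays), each tissue had 4 of cross 301/005 and 2 of cross 301/250. The sets of ears in a loop were pollinated on the same day, and the submitters call the loops biological replicates. No label says how many ears or kernels went into an RNA sample.

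HMG proteins of the HMG-box type are small and abundant non-histone proteins of chromatin. The HMG box binds the minor groove of DNA and bends it, which helps other proteins to assemble on it, and the plant members often carry a basic region before the box and an acidic tail after it. In RefSeq's gene table (assembly Zm-B73-REFERENCE-NAM-5.0), NFD101 is LOC542658, NFD104 is LOC541951 with the synonym hmg2, and NFD106 is LOC541952. NFE101 is LOC100191667 there, with the synonym DDT2. DDT domains occur in proteins that partner chromatin remodelling enzymes, and no further role of NFE101 is taken as known here. No probe sequences were used, so how far a probe also binds transcripts of related genes was not tested.

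The value of a probe on an array is the log2 ratio of hybrid over inbred RNA. The labels do not state which channel is divided by which. Channel 1 over channel 2 is the likely direction, and with the other one every sign in the text would turn. No array set embryo beside endosperm, so whether a gene was higher in one tissue cannot be read, and the ratios do not separate fewer cells of a type from less RNA per cell. The arrays held 926 to 3430 values, and the 10 arrays that lacked all 4 members lacked the whole set of 623 probes to which they belong. NFD101 and NFD106 had a value on 38 arrays, NFD104 on 37 and NFE101 on 36. Replicates 1 and 2 of the 301/005 embryos held none of them. From here on, 5 arrays with fewer than 2200 values, of which 3 belong to replicate 4 of the 301/005 embryos, are called sparse. The probes of the endosperm genes MEG1, FIE1 and NRP1 belong to the same set, which 16 embryo and 22 endosperm arrays held. They had values on 10, 13 and 13 of those embryo arrays and on 19, 20 and 14 of those endosperm arrays. A ratio carries no level, so the labelled tissues could not be checked against markers.

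**Figure D1:**
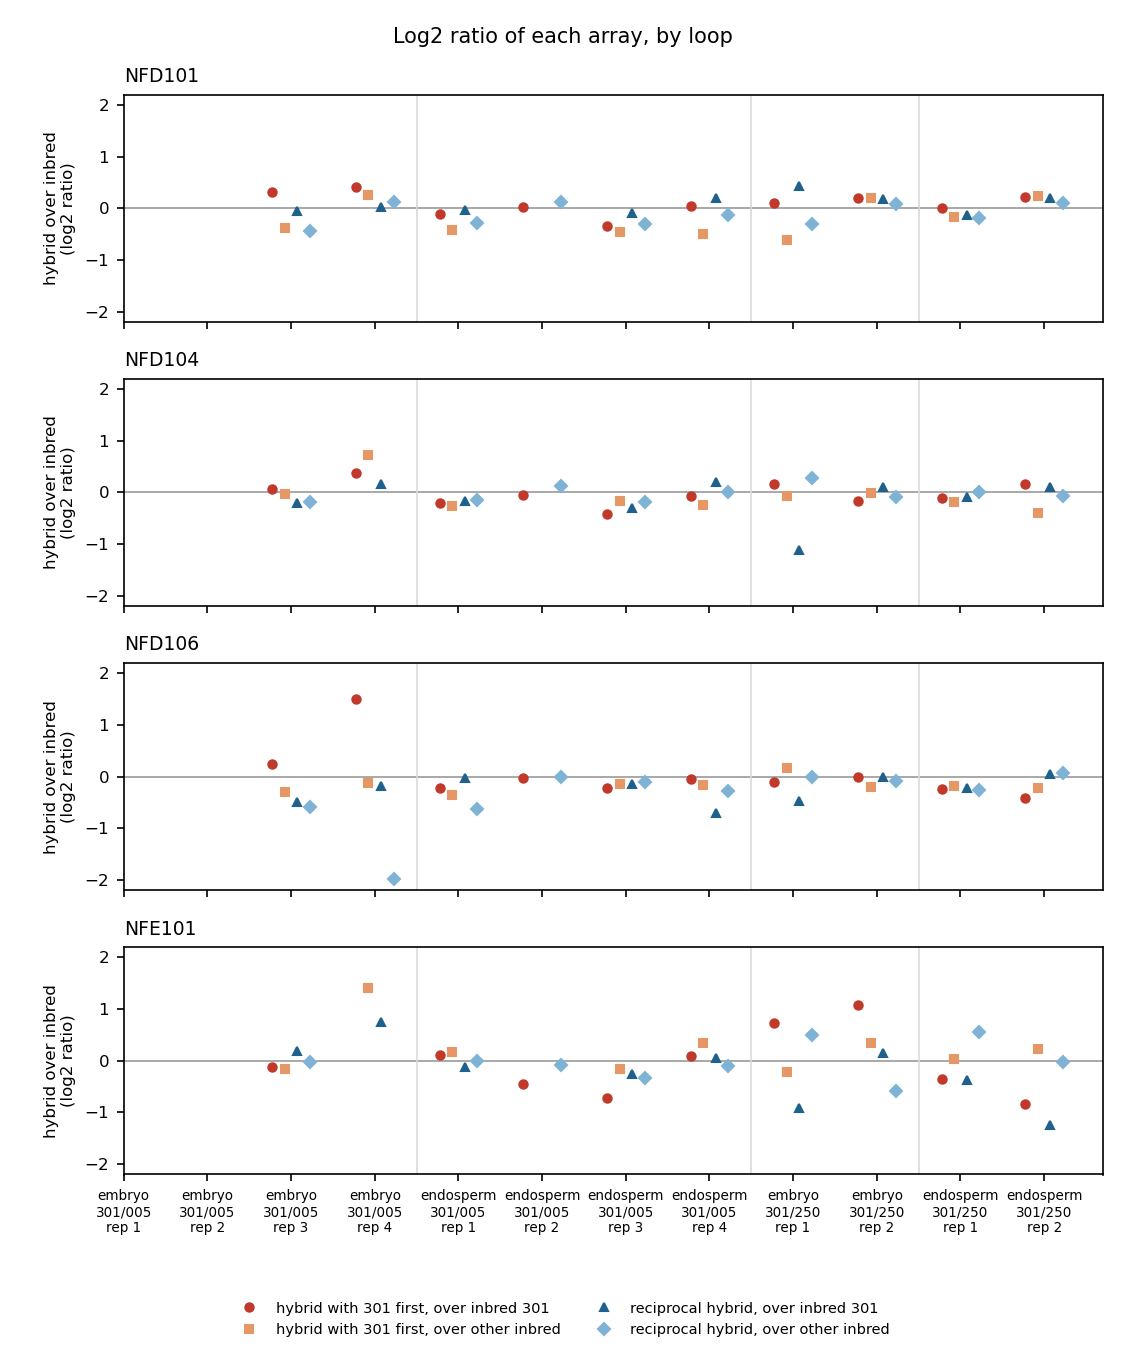
Log2 ratio of hybrid over inbred for each member on every array that has a value, by loop, with the marker giving the hybrid and the inbred. All 14 uncentred values of NFD106 in the 301/005 endosperm lie below 0, and its values of 1.50 and -1.98 in replicate 4 of the 301/005 embryos are the extremes of the 4 members.

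Most ratios were small. NFD101 never exceeded 1 in size on any of its 38 arrays. NFD104 did so on 1 array, NFD106 on 2 and NFE101 on 3. Spread over the arrays of a tissue and cross was smallest for NFD106 in the 301/250 endosperm (SD 0.16, n = 8 arrays). It was largest for the same gene in the 301/005 embryos (SD 0.96, n = 8 arrays), where it comes from 1 loop described below.

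Each loop gave 3 differences per gene. The mid-parent difference is the mean of both hybrids minus the mean of both inbreds, the reciprocal difference is the hybrid with 301 named first minus its reciprocal, and the inbred difference is 301 minus the other inbred. All were tested over all probes with limma, a difference being called at an adjusted p under 0.05. Each SE pools the spread between loops over both tissues and crosses. It can thus differ from the spread of one group's own loops. None of the 46 tests that the 4 members allowed passed, and the lowest adjusted p was 0.312. Few other probes passed either. For the mid-parent difference 0% of probes were called in each tissue of each cross. For the reciprocal difference 1.14% were called in the 301/005 endosperm and 0% in the other groups. For the inbred difference 4.89% were called in the 301/005 endosperm, 0.0356% in the 301/250 endosperm and 0% in both sets of embryos.

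Before adjustment, 4 of the 46 tests had a p under 0.05 (8.7%), against 8.28% over all probes in the same comparisons. They were the reciprocal and the inbred difference of NFD106 in the 301/005 embryos, the reciprocal difference of NFE101 in the 301/250 embryos and the inbred difference of NFE101 in the 301/250 endosperm. The share of the members thus lies near that of the table. Separately, the percentages of all probes with an unadjusted p under 0.05 for the mid-parent difference were 7.4% in the 301/005 embryo, 6.34% in the 301/005 endosperm, 5.79% in the 301/250 embryo and 1.81% in the 301/250 endosperm. In the same order they were 7.72%, 12.6%, 13.5% and 1.69% for the reciprocal difference. For the inbred difference they were 12%, 18.1%, 7.91% and 4.16%.

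**Figure D2:**
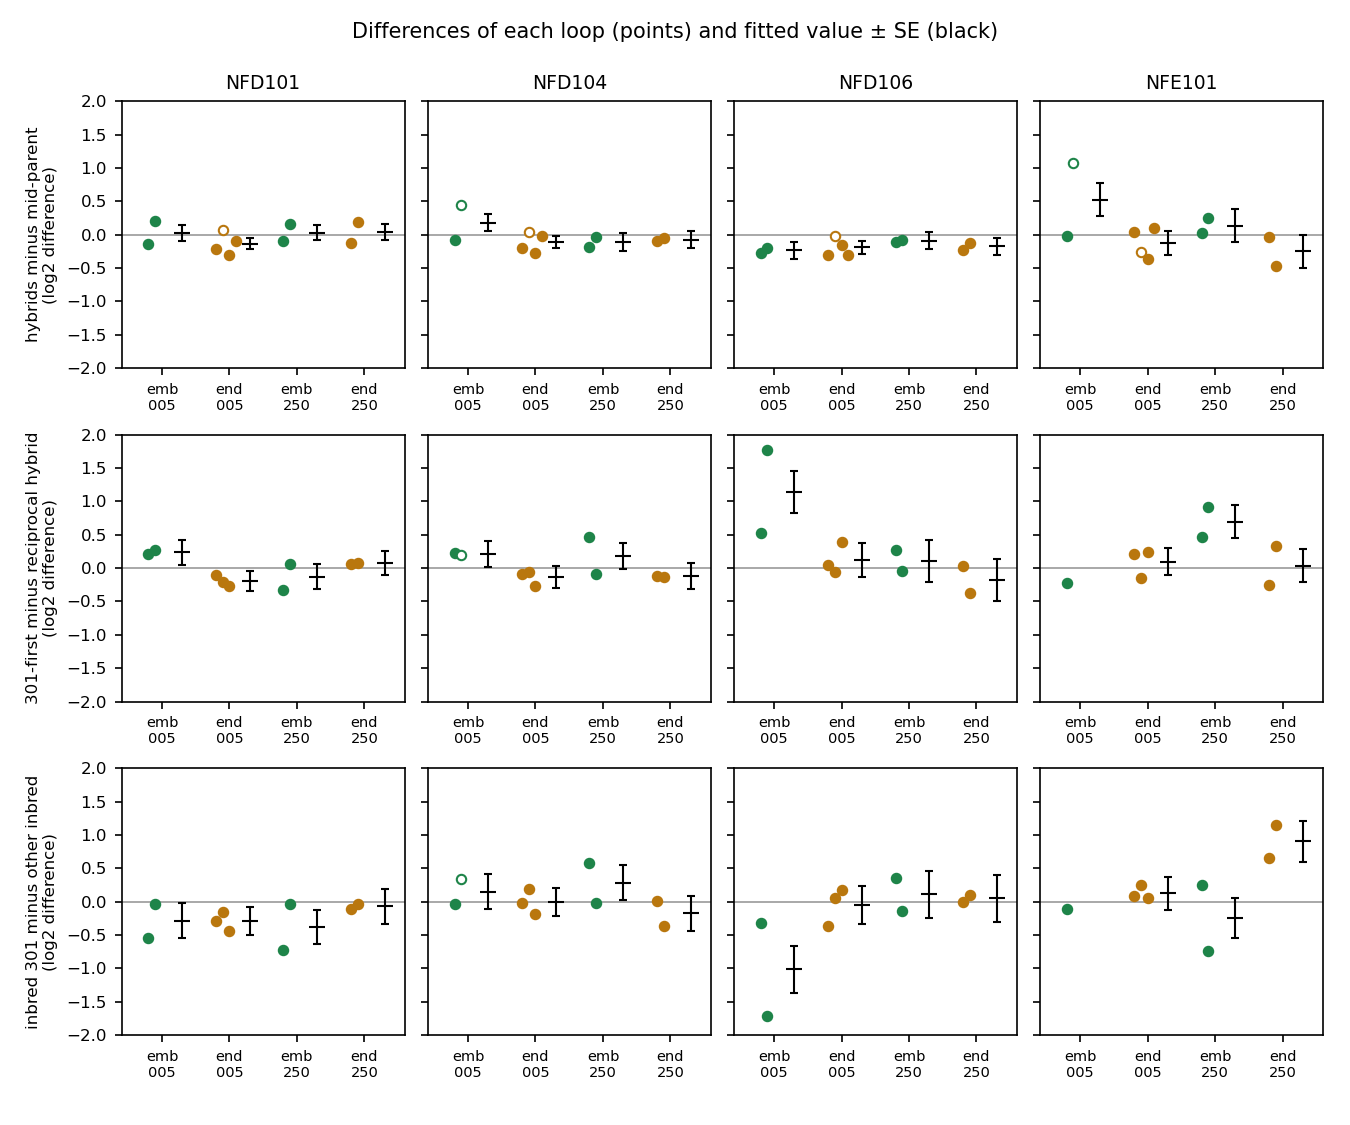
Mid-parent, reciprocal and inbred differences (log2) of the 4 members in each loop, by tissue (emb, embryo; end, endosperm) and by the partner of 301 (005 or 250). Filled points are loops with all 4 arrays, open points loops with 2 or 3, and black marks the fitted value ± SE. NFD106 lies below 0 in all 10 loops of the top row, and NFD101 in all 9 loops of the bottom row.

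NFD106 was the only member whose hybrids lay on the same side of the mid-parent in every loop. Its 14 array ratios in the 301/005 endosperm ran from -0.71 to -0.0051 with a median of -0.15. None lay above 0, so the hybrid read lower than the inbred on each of these arrays before centring. The share of all probes that do so was not counted. The 4 loops gave mid-parent differences of -0.31, -0.015, -0.15 and -0.30 for replicates 1 to 4. Replicate 2, which had only 2 arrays for this gene, was nearest to 0. Its 2 ratios, -0.024 and -0.0051, lay above the medians of their arrays, -0.064 and -0.069, so they do not stay below 0 after centring. The fitted value was -0.19 ± 0.09 (SE, n = 4 loops; adjusted p = 0.718).

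The other groups gave the same sign for NFD106. In the 301/005 embryos the loops lay at -0.28 and -0.19, in the 301/250 embryos at -0.10 and -0.076, and in the 301/250 endosperm at -0.23 and -0.13. The value -0.19 is that of replicate 4, whose array ratios ran from -1.98 to 1.50, mostly on sparse arrays. Across tissues and crosses all 10 loops were below 0. Among the 1523 probes with values in the same loops, 5 (0.328%) had all 10 loops on one side of 0, and this count was made after the values of NFD106 had been seen. Averaged over the 4 groups, NFD106 lay at -0.17 ± 0.06 (SE, n = 10 loops; 95% interval -0.31 to -0.035; p = 0.0209). That difference does not pass adjustment over all probes (adjusted p = 0.656), and 0.0449% of probes did. Before adjustment, 168 of the 2228 probes tested for this mean had a p under 0.05, and NFD106 ranked 68 among them. When each array was centred on its median, 9 of the 10 loops stayed below 0, as did 18 of 22 endosperm arrays in place of 20.

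The largest differences of any member were those of NFD106 in the 301/005 embryos. In replicate 4 the ratios were 1.50 for 301x005 over 301, -0.18 for 005x301 over 301, -0.12 for 301x005 over 005 and -1.98 for 005x301 over 005. In replicate 3 the same arrays read 0.25, -0.49, -0.29 and -0.59. Both loops place the genotypes in one order, with 301x005 above 005x301 and inbred 005 above inbred 301, but replicate 4 does so by a much wider margin.

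The reciprocal difference of NFD106 in these embryos was therefore 0.52 in replicate 3 and 1.77 in replicate 4, with a fitted value of 1.14 ± 0.31 (SE, n = 2 loops; adjusted p = 0.552). The inbred difference was -0.32 and -1.71, with a fitted value of -1.02 ± 0.35 (SE, n = 2 loops; adjusted p = 0.326). Without replicate 4 they drop to the values of replicate 3. When single arrays and not loops were the unit, both passed, with adjusted p-values of 0.0234 and 0.00882 with the loop as a block. Arrays of a loop share genotypes and a pollination day, so that count of arrays overstates the replication.

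Each genotype enters 2 arrays of a loop. The 4 ratios must therefore close to 0, apart from array error and any difference between the RNA of a genotype on its 2 arrays. NFD106 closed to 0.18 log2 units in replicate 4, where the median probe closed to 0.529. Closure is a single sum per loop, in which errors of opposite sign on the arrays reading 1.50 and -1.98 would cancel. It therefore cannot show whether the wide spacing of the genotypes in this loop is sound. Of the loop's arrays 3 are sparse, and the 4 hold 926 to 2253 values. The arrays reading 1.50 and -1.98 held 1367 and 926, the fewest of the loop. Whether that bears on the size of the difference was not tested.

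In the endosperm of the same cross the reciprocal difference of NFD106 was 0.050, -0.053 and 0.39 in replicates 1, 3 and 4. These lie on both sides of 0, and the fitted value was 0.13 ± 0.26 (SE, n = 3 loops). The tissue difference, endosperm minus embryo, was -1.02 ± 0.40 for the reciprocal difference (adjusted p = 0.544) and 0.97 ± 0.45 for the inbred difference (adjusted p = 0.613). In cross 301/250 the reciprocal difference was 0.27 and -0.049 in embryos and 0.028 and -0.38 in endosperm, again on both sides of 0. Its inbred difference was 0.36 and -0.14 in embryos and 0.00083 and 0.095 in endosperm.

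**Figure D3:**
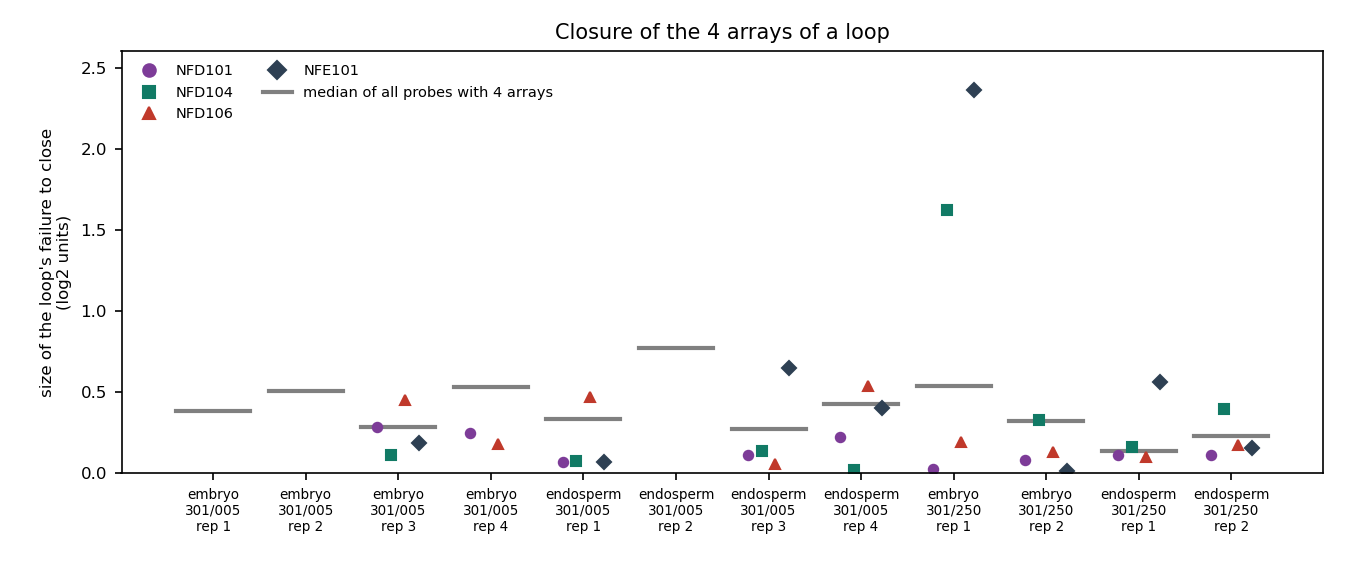
Size of the closure residual (log2 units) of each member in each loop where it has all 4 arrays, with the median over all probes that have 4 arrays as a grey bar. NFD104 (1.62) and NFE101 (2.36) stand far above the median of 0.537 in replicate 1 of the 301/250 embryos, and NFD106 (0.18) lies below that of 0.529 in replicate 4 of the 301/005 embryos.

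NFD101 read lower in inbred 301 than in the other inbred in every loop. Its inbred differences in the 301/005 endosperm were -0.29, -0.16 and -0.44 in replicates 1, 3 and 4. The 301/005 embryos gave -0.54 and -0.029, the 301/250 embryos -0.73 and -0.042, and the 301/250 endosperm -0.12 and -0.030. All 9 loops were thus below 0, but they ranged from close to 0 to -0.73, and the wide range holds within both sets of embryos.

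The fitted inbred differences of NFD101 were -0.29 ± 0.26 (SE, n = 2 loops) in the 301/005 embryos, -0.29 ± 0.21 (n = 3) in the 301/005 endosperm, -0.38 ± 0.26 (n = 2) in the 301/250 embryos and -0.07 ± 0.26 (n = 2) in the 301/250 endosperm. Their mean over the 4 groups was -0.26 ± 0.12 (SE, n = 9 loops; 95% interval -0.55 to 0.028; adjusted p = 0.316). At the same time 4.38% of probes were called for that mean, and 5.95% of 1026 probes had all 9 loops on one side of 0. One sign in all loops was therefore common among inbred differences. After centring each array, 8 of the 9 loops stayed below 0.

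The hybrids of NFD101 lay near the mid-parent, at -0.01 ± 0.06 over the 4 groups (SE, n = 10 loops). The loop values differed between odd-numbered and even-numbered replicates. Replicate number sets the dye orientation, so dye and replicate cannot be told apart. In odd-numbered replicates, where the hybrid RNA was in channel 2, all 5 lay below 0, from -0.30 to -0.10. In even-numbered ones, where it was in channel 1, 4 of 5 lay above 0, up to 0.20. The fitted dye coefficient was 0.14 for NFD101, 0.12 for NFD104, 0.11 for NFE101 and 0.036 for NFD106, and it was taken out of the mid-parent differences. The group in which NFD101 varied least was 301x005 over 005 in endosperm, at -0.46 ± 0.04 (SD, n = 3 arrays).

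The reciprocal difference of NFD101 was 0.21 and 0.27 in the 301/005 embryos and -0.10, -0.21 and -0.27 in the 301/005 endosperm. The tissues thus did not overlap in that cross, as was the case for 37.7% of the 1153 probes with values in these 5 loops. The difference between them was -0.43 ± 0.24 (SE, n = 5 loops; adjusted p = 0.602), and 0% of probes were called for it. In cross 301/250 the values were -0.32 and 0.068 in embryos and 0.069 and 0.080 in endosperm.

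NFD104, the maize hmg2 gene, was called in no group for the mid-parent difference, and its loops lay on both sides of 0. Its mid-parent difference was -0.19, 0.042, -0.27 and -0.027 in replicates 1 to 4 of the 301/005 endosperm, and the fitted value was -0.11 ± 0.09 (SE, n = 4 loops; adjusted p = 0.789). It was -0.10 and -0.053 in the 301/250 endosperm and -0.19 and -0.036 in the 301/250 embryos. The 301/005 embryos differed among themselves, with -0.084 in replicate 3 and 0.44 in replicate 4, where 1 of the 4 arrays had no value. The fitted value in these embryos was 0.18, with a 95% interval of -0.13 to 0.49. Over the 4 groups the mean was -0.03 ± 0.06 (SE, n = 10 loops), which centring and scaling of the arrays turned to 0.00037.

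In endosperm, NFD104 read lower in the hybrid with 301 named first in all 5 loops. The reciprocal differences were -0.086, -0.051 and -0.26 in replicates 1, 3 and 4 of cross 301/005 and -0.11 and -0.13 in cross 301/250. They are small, and 7.08% of 2075 probes had all 5 of these loops below 0. After centring each array all 5 loops of NFD104 stayed below 0, and after centring and scaling 4 did. The fitted values were -0.13 ± 0.16 (SE, n = 3 loops) and -0.12 ± 0.20 (SE, n = 2 loops). Embryos gave 0.22 and 0.20 in cross 301/005 and 0.46 and -0.093 in cross 301/250.

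The value 0.46 rests on 1 array. In replicate 1 of the 301/250 embryos NFD104 read -1.12 for 250x301 over 301, while the other 3 arrays read 0.15, -0.070 and 0.28. This loop missed closure by 1.62 log2 units, against a median of 0.537 over all probes, and the array at -1.12 is one of the sparse ones. Without the sparse arrays the reciprocal difference of NFD104 in the 301/250 embryos turned from 0.18 ± 0.20 to -0.22. The inbred difference of NFD104 had both signs among the loops of each of the 4 groups, for example 0.012 and -0.37 in the 301/250 endosperm.

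NFE101 was the most variable member in cross 301/250 (SD over 8 arrays 0.67 in embryo and 0.58 in endosperm, against at most 0.43 for the others). In the 301/250 endosperm, 301x250 over 301 read -0.35 and -0.84 in replicates 1 and 2, and 250x301 over 301 read -0.38 and -1.25. Against inbred 250, the same hybrids read 0.027 and 0.23 (301x250) and 0.56 and -0.018 (250x301). Both hybrids were thus below inbred 301 on all 4 arrays and near or above inbred 250.

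The inbred difference of NFE101 in the 301/250 endosperm was 0.66 in replicate 1 and 1.15 in replicate 2, or 0.91 ± 0.30 fitted (SE, n = 2 loops; 95% interval 0.18 to 1.63; adjusted p = 1). In the 301/005 endosperm it was 0.088, 0.24 and 0.050, also above 0, and the fitted value was 0.13 ± 0.25 (SE, n = 3 loops). That SE is pooled with the other groups, and these 3 loops lie closer together than those of cross 301/250. All 5 endosperm loops were above 0, as for 11.2% of 2050 probes. The embryos of cross 301/250 gave 0.24 and -0.74, on both sides of 0. The tissue difference in that cross was 1.15 ± 0.43 (SE, n = 4 loops; adjusted p = 0.991).

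The reciprocal difference of NFE101 was highest in the 301/250 embryos, at 0.47 in replicate 1 and 0.92 in replicate 2, or 0.69 ± 0.25 fitted (SE, n = 2 loops; adjusted p = 0.312). Replicate 1 missed closure by 2.36 log2 units, more than 92.6% of probes in that loop, with ratios of 0.73 and -0.92 over inbred 301 but -0.21 and 0.50 over inbred 250. The order of the hybrids in that loop thus depends on which inbred they are read against. Replicate 2 closed to 0.011. Without the sparse arrays the fitted value fell to 0.10. The endosperm gene FIE1 had a reciprocal difference of -1.01 ± 0.29 in the same embryos (SE, n = 2 loops; adjusted p = 0.251), the opposite sign. Its replicate 1 also includes the sparse array, where FIE1 read 0.84. MEG1 stood at -0.83 ± 0.49 (SE, n = 2 loops; adjusted p = 0.521), with 1 loop on each side of 0. NRP1 also had 1 loop on each side and could not be tested. The part of these genes in the result was not tested.

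In endosperm the reciprocal difference of NFE101 was 0.21, -0.15 and 0.23 in cross 301/005 and -0.26 and 0.33 in cross 301/250, so loops of one group disagreed in sign. The mid-parent difference was 0.043, -0.26, -0.36 and 0.099 in the 301/005 endosperm. It was -0.036 and -0.47 in the 301/250 endosperm and 0.024 and 0.25 in the 301/250 embryos. In the 301/005 embryos the loops stood at -0.026 in replicate 3 and 1.08 in replicate 4, which rests on 2 arrays, 1 of them sparse. The fitted 0.53 ± 0.25 (SE, n = 2 loops; adjusted p = 0.658) turned to -0.12 without the sparse arrays.

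**Figure D4:**
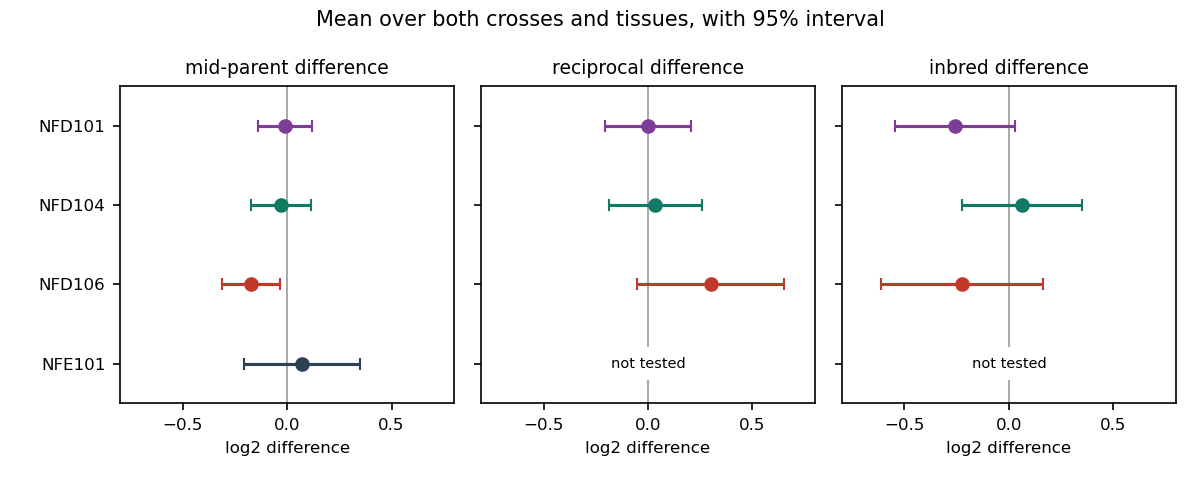
Mean of the fitted differences over both tissues and both crosses for each member, with 95% intervals, on the log2 scale. The interval of NFD106 for the mid-parent difference (-0.31 to -0.035) does not reach 0, those of the other tested means do, and NFE101 could be tested for the mid-parent difference only. The intervals are not adjusted, and 168 of 2228 probes had an unadjusted p under 0.05 for the mean mid-parent difference.

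Tests of whether a difference itself changed between tissues or between crosses were possible in 44 cases over the 4 members. None passed adjustment, with a lowest adjusted p of 0.499 and an unadjusted p under 0.05 in 2 (4.55%), the tissue differences of NFD106 and NFE101 given above. Over all probes 5.39% of such tests had one. In embryos the cross difference of NFD106, 301/005 minus 301/250, was 1.03 ± 0.44 for the reciprocal difference (adjusted p = 0.499) and -1.12 ± 0.49 for the inbred difference (adjusted p = 0.683). Both rest on replicate 4 of the 301/005 embryos, without which they were 0.41 and -0.43. For all such differences 0% of probes were called.

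The 4 members did not vary together. With each loop centred, Pearson's r between pairs of members over 36 to 38 arrays ran from -0.18 to 0.31. The probes most like NFD106 were NFA103 (r = 0.854, Spearman's rho = 0.498, 38 arrays), NFA104 (r = 0.839, rho = 0.461) and CC807 (r = 0.823, rho = 0.424). NFA proteins are of the nucleosome assembly protein type, histone chaperones that help to build nucleosomes. In replicate 4 of the 301/005 embryos NFA103 read 1.51 and NFA104 1.06 for 301x005 over 301, beside 1.50 for NFD106, and -0.53 and -0.88 for 005x301 over 005, beside -1.98. Without that loop the correlations fell to 0.449, 0.461 and 0.239. Arrays of a loop share genotypes and a pollination day, so these are descriptions of 38 dependent points.

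The probe most like NFD104 was another HMG probe, NFD109 (r = 0.886, rho = 0.679, 35 arrays), ahead of QE8 (r = 0.875) and LA8 (r = 0.858). NFD109 read -2.27 on the array where NFD104 read -1.12. Without replicate 1 of the 301/250 embryos r with NFD109 was 0.68, and it was 0.609 with QE8 and 0.567 with LA8. NFD101 was most like EH7 (r = 0.838, 25 arrays), NF8 (r = 0.735) and CC367 (r = 0.729), and within its own probe set like E21 (r = 0.671), which fell to 0.288 without the same loop. With the loops not centred, r of NFD101 was 0.406 with EH7, 0.755 with NF8, 0.582 with CC367 and 0.083 with E21. NFE101 was most like NC8 (r = 0.727, 36 arrays), CC31 (r = 0.684) and JA11 (r = 0.683), and within its own set like F5 (r = 0.558). Per member, 2891 to 2902 probes were compared. The 99th percentile of their r ran from 0.544 for NFE101 to 0.704 for NFD104.

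The 9 NFA and NFC probes stand for nucleosome and chromatin assembly factors, NFC101 being listed by RefSeq with the synonym rbap2, after the retinoblastoma-binding histone chaperones. None of the 9 was called in any of the comparisons. For the 301/005 endosperm, 7 of the 8 measured lay below the mid-parent, with a median of -0.13, from -0.28 (NFC104) to 0.18 (NFA102). The 6 other NFD probes, a list added after the data were seen, all lay below it there, from -0.25 (NFD105) to -0.093 (NFD108), with a median of -0.17, while the median of all probes was -0.0069. NFD101, NFD104 and NFD106, at -0.14, -0.11 and -0.19, stood in the same range. Of all probes 48.3% lay above the mid-parent in that endosperm.

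The sides were more mixed in the other groups, and the lists were not tested against other probes. In the 301/005 embryos 6 of 8 NFA and NFC probes and 3 of 4 other NFD probes lay above the mid-parent, with medians of 0.054 and 0.16. Of all probes 51.3% lay above it there. Cross 301/250 had 5 of 8 and 4 of 6 below it in embryos and 6 of 8 and 4 of 6 in endosperm. Of all probes 47.6% and 47.3% lay above it in those embryos and that endosperm. Among single probes NFA102 was lowest in the 301/005 embryos at -0.84 ± 0.20 (SE, n = 2 loops; adjusted p = 0.519). Its replicate 4 rests only on arrays reading 0.10 and -2.27, the latter sparse.

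For the reciprocal difference in the 301/005 embryos, where NFD106 was high, NFA104 stood at 0.73 ± 0.24 and NFA103 at 0.61 ± 0.24 (SE, n = 2 loops; adjusted p = 0.612 and 0.617). Replicate 4 gave 1.11 and 1.07, and without it the values are those of replicate 3, 0.36 and 0.14. Of the 6 NFA and NFC probes measured for it 4 lay above 0, with a median of 0.16, against 0.033 for all probes, of which 54.7% lay above 0. For the inbred difference in the same embryos 5 of 6 lay below 0, with a median of -0.30. The median of all probes was 0.019, and 51.7% of them lay above 0. In the 301/250 endosperm all 8 measured lay below 0 for the reciprocal difference, from -0.17 (NFC103) to -0.0067 (NFA104), where 55.3% of all probes lay above 0 and their median was 0.020. Of the 6 other NFD probes 3 lay above and 3 below 0 there, and the NFD106 loops had both signs.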

How the data were processed

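The deposited table holds 1 log2 ratio per probe and array, made by the authors from both channels. The log2 base is taken from the values, while background correction, normalization and centring are not given in the sources used. Per the labels' protocols, mRNA was amplified as cDNA before Cy3 or Cy5 labelling, which can change ratios. Array medians lay between -0.20 and 0.11, and values were used uncentred. The number of arrays limits the precision, and no intensities were used.

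Odd-numbered replicates carried the inbred in channel 1 (Cy3), and ratios were turned to hybrid over inbred. Channel 1 over channel 2 follows the order of the titles. With it, probes whose inbreds differed by over 1 lay above the mid-parent in 100 of 168, 236 of 304, 94 of 165 and 57 of 82 cases (301/005 embryo and endosperm, 301/250 embryo and endosperm), where the whole table gave 51.3%, 48.3%, 47.6% and 47.3%.

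A loop entered a difference wherever its arrays could estimate it. The 12 loops were fitted together (limma 3.58.1, R 4.3.3) with 1 coefficient per tissue and cross, a dye coefficient for the mid-parent difference, and moderated variances. Probes needed at least 2 loops of both dye orientations and 3 residual degrees of freedom. P-values are two-sided and Benjamini-Hochberg adjusted over the probes tested. They set a difference against the spread between loops of a group, pooled over the groups. The procedure was tested on simulated data. Named are the 4 members, list extremes, the 3 probes and the 1 probe of their own set with the highest r over at least 24 arrays, and MEG1, FIE1 and NRP1. The members and lists were chosen with earlier results of these data known.

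Alternatives left out each loop, centred or scaled arrays, took single arrays as the unit, used the spread of one group alone, only complete loops or no dye coefficient, blocked by replicate number, or left out the sparse arrays (chosen after seeing the data). RefSeq's table named 4 of 4 members, 8 of 9 NFA and NFC probes and 1 of 6 other NFD probes.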

Additional observations from a re-analysis of the deposited data

Results flagged for a closer look

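For NFE101 the reciprocal difference lay on opposite sides of 0 in the embryos of the crosses. It was 0.47 and 0.92 in the 2 loops of cross 301/250 and -0.23 in the 1 loop of cross 301/005 that could give it, so the latter minus the former was -0.92. The difference was not tested, because 1 loop stands alone. The value 0.47 comes from replicate 1, which missed closure by 2.36 log2 units. Without the sparse arrays the fitted value in the 301/250 embryos fell from 0.69 to 0.10. The inbred difference of NFE101 in cross 301/005 was above 0 in all 3 endosperm loops, with a mean of 0.13, and -0.12 in the 1 embryo loop, which puts endosperm above embryo by 0.24. That difference was not tested either.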

How the results depend on the processing

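No member passed the threshold under any setting in which the loop was the unit. With single arrays as the unit, the reciprocal (1.14) and inbred (-1.02) differences of NFD106 in the 301/005 embryos passed, both with the loop as a replicate block and with no replicate block. The mean mid-parent difference of NFD106 stayed between -0.19 and -0.16 over its alternatives, with adjusted p from 0.435 to 0.892.

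Centring each array turned the mean mid-parent (0.00011) and reciprocal (0.00052) differences of NFD101 and the 301/005 endosperm inbred differences of NFD104 (0.063) and NFD106 (0.023). Centring and scaling turned the mean reciprocal difference of NFD101 (0.020), the mean mid-parent (0.00037) and reciprocal (-0.011) differences of NFD104, the 301/005 endosperm inbred differences of NFD104 (0.047) and NFD106 (0.0084), and the 301/250 endosperm reciprocal difference of NFE101 (-0.099). Without the sparse arrays, mid-parent differences became -0.0022 (NFD101), -0.051 (NFD104) and -0.12 (NFE101) in the 301/005 embryos, 0.090 for NFD104 in the 301/250 embryos and -0.021 for the mean of NFE101. NFD104 then had reciprocal differences of -0.22 in the 301/250 embryos and -0.063 on average, and inbred differences of -0.041 and -0.12 in the 301/005 and 301/250 embryos and -0.086 on average. The causes were not tested.

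Leaving out 1 loop at a time moved these values across 0. For NFD101 the range was -0.0099 to 0.067 (mid-parent, 301/005 embryo), -0.32 to 0.068 (reciprocal, 301/250 embryo) and -0.050 to 0.047 (mean reciprocal). For NFD104 it was -0.20 to 0.049 (mid-parent, 301/250 endosperm), -0.093 to 0.46 (reciprocal, 301/250 embryo), -0.041 to 0.34, -0.11 to 0.081, -0.015 to 0.59 and -0.37 to 0.012 (inbred, 301/005 embryo and endosperm, 301/250 embryo and endosperm), and -0.075 to 0.015, -0.034 to 0.10 and -0.013 to 0.14 (mean mid-parent, reciprocal and inbred). For NFD106 it was -0.0018 to 0.22, -0.049 to 0.27 and -0.38 to 0.028 (reciprocal, 301/005 endosperm, 301/250 embryo and endosperm), -0.16 to 0.11 and -0.14 to 0.36 (inbred, 301/005 endosperm and 301/250 embryo). For NFE101 it was -0.033 to 1.09 and -0.65 to 0.15 (mid-parent, 301/005 embryo and 301/250 endosperm), -0.067 to 0.21 (mean mid-parent), -0.26 to 0.33 (reciprocal, 301/250 endosperm) and -0.74 to 0.24 (inbred, 301/250 embryo).

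Counts of called probes over the whole table moved more. With single arrays and the replicate block they were, in the order 301/005 embryo and endosperm and 301/250 embryo and endosperm, 3, 8, 3 and 3 for the mid-parent, 10, 108, 18 and 1 for the reciprocal and 123, 368, 19 and 11 for the inbred difference. With no replicate block they were 31, 30, 9 and 6, then 7, 86 and 2 for the first 3 reciprocal differences, then 101, 314, 5 and 11. For the inbred difference, centring gave 2 (301/005 embryo), scaling 7, 38 and 5 (301/005 embryo and endosperm, 301/250 endosperm) and 1 for its cross difference in embryos, and complete loops 17 and 0 (301/005 embryo, 301/250 endosperm). For the reciprocal difference, centring gave 1 (301/250 embryo), scaling 12 (301/005 endosperm) and complete loops 4 (301/250 embryo). The spread of one group alone gave 21 and 5 (inbred, endosperm of 301/005 and 301/250), 5 (mid-parent) and 0 (reciprocal, 301/005 endosperm). Without sparse arrays 16 (reciprocal, 301/005 endosperm) and 0 (inbred, 301/250 endosperm) were called.

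Leaving out 1 loop, the called probes numbered 0 to 113 in place of 146 and 0 to 16, 0 to 17 and 0 to 0 in place of 0, 0 and 1 (inbred, 301/005 endosperm and embryo, 301/250 embryo and endosperm), 0 to 55 in place of 34 and 0 to 29, 4 to 9 and 0 to 2 in place of 0 (reciprocal, same order), and 0 to 1 (mid-parent, 301/250 embryo). For the means they were 11 to 105 (inbred), 0 to 2 (mid-parent) and 0 to 9 (reciprocal). Cross differences in embryos had 0 to 10 (inbred), 0 to 1 (mid-parent) and 0 to 12 (reciprocal), and tissue differences 0 to 4 and 0 to 1 (inbred, 301/005 and 301/250) and 0 to 9 and 0 to 3 (reciprocal). A replicate block for the tissue differences called 0 probes, as the fit without it, and left the members too few degrees of freedom. Same-numbered loops of the tissues correlated at -0.12 to 0.094 for the reciprocal and 0.076 to 0.28 for the inbred difference, so the numbers do not pair the tissues by the correlation rule of over 0.1 in every pair. No intensities were used, so the signal over background behind a ratio is unknown.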
